A study of Sus scrofa with 12 samples.

Results

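RETREG1 (also named FAM134B) and a set of autophagy genes were followed across the Biceps femoris muscle of newborn pigs. RETREG1 was picked because its level differed between these same animals, and SQSTM1, MAP1LC3B, GABARAPL1, ULK1, BNIP3, BNIP3L, BECN1, WIPI1 and TFEB were picked with it as genes of the same process. Of the 10 genes, 9 had a row among the 22861 genes of the expression table, and BNIP3 was matched to no row and is not analysed here. All 9 passed the filter on low values, a mean above 0.5 RPKM in at least 1 genetic type. RPKM is the number of reads per kilobase of exon, scaled to the mapped reads of the animal, so levels of different genes can be set beside each other per length.

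The samples are male piglets on postnatal day 1, 5 Iberian x Duroc (IBxDU) and 6 pure Iberian (IB). Both genetic types were born to purebred Iberian sows of 1 commercial farm, IBxDU to Duroc boars and IB to Iberian boars, so the mothers' breed is shared and the sires' breed differs. The labels list 12 piglets, and the 1 IBxDU piglet without values is not analysed here. The study left out 1 IBxDU animal because it stood apart in clustering. The study mated 5 sows to Iberian boars, so the 6 IB piglets include littermates. The sources used here do not say which piglets these were. Each piglet was nevertheless treated as independent, so SEs, intervals and p-values take no account of litter. The p-values for IBxDU against IB set the difference between the types against the spread between these animals.

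The values imply 18518497 to 33544359 mapped reads per IBxDU animal and 19096202 to 32879225 per IB animal. The average read number and mapped share that the study reported come to more mapped reads per animal. The unit recovered here may therefore not be single reads, and read counts and counting errors below are in this unit. Over all genes the IBxDU minus IB difference was shifted upward, with a median log2 fold change of 0.13, and 66.9% of 11875 tested genes were above 0. Scaling the animals by their upper quartile or by median-of-ratios brought this median to 0.01. By the limma fit, 2 of the 11875 genes (0.0168%) passed an adjusted p of 0.05, both higher in IBxDU. At an unadjusted p under 0.05, 713 genes were higher and 240 lower in IBxDU, against 359 and 519 after upper quartile scaling and 353 and 532 after median-of-ratios scaling. The muscle label was checked on the 2 of 9 fibre markers that were matched: ACTA1, skeletal muscle actin, was among the 6 most abundant genes of each animal, and DES, desmin, averaged 2338 RPKM in IBxDU and 3111 RPKM in IB.

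Autophagy encloses parts of the cell in a double membrane that then fuses with lysosomes. The ULK1 kinase complex starts the process, the lipid kinase complex around BECN1 marks the membrane with a phosphoinositide that WIPI proteins bind, and small ubiquitin-like proteins of the ATG8 family (the LC3 and GABARAP proteins) are then coupled to the growing membrane. Cargo is chosen by receptors that bind ATG8 proteins. RETREG1 is such a receptor in the membrane of the endoplasmic reticulum (ER), where it bends the membrane and delivers pieces of ER to autophagosomes, a route called ER-phagy. In human patients, loss of RETREG1 causes a hereditary sensory and autonomic neuropathy. In mice, autophagy is known to rise in several tissues shortly after birth, and in skeletal muscle during fasting.

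RETREG1 (ENSSSCG00000016792) was the member with the lowest level in IBxDU relative to IB. Values by animal are given throughout in the order IBxDU-402, IBxDU-412, IBxDU-426, IBxDU-427 and IBxDU-429 for IBxDU, and IB-323, IB-330, IB-345, IB-431, IB-503 and IB-504 for IB. RETREG1 had 5.10, 13.98, 3.06, 12.7 and 4.30 RPKM in the IBxDU piglets, against 18.2, 13.3, 23.9, 17.1, 27.6 and 28.9 RPKM in the IB piglets. Of the 5 IBxDU piglets 4 were below every IB piglet, and IBxDU-412 was above IB-330 alone, so the groups overlapped in that pair. Among IBxDU, the values fell in a low trio (IBxDU-402, IBxDU-426 and IBxDU-429) and a pair near the lowest IB piglets (IBxDU-412 and IBxDU-427). The mean was 7.82 ± 5.10 RPKM in IBxDU (SD, n = 5) and 21.5 ± 6.25 RPKM in IB (SD, n = 6). The fitted log2 fold change, IBxDU minus IB on log2(RPKM + 0.1), was -1.65 with an SE of 0.37 and a 95% interval of -2.45 to -0.84. Since RETREG1 was chosen for this difference, the values describe these animals and no test is given. Each RETREG1 value rests on 462 to 4834 reads, a counting error of 1.44 to 4.65%, smaller than the spread between animals of 1 type. RETREG1 was the one member with a log2 fold change of -1 or less, as were 0.733% of all genes tested.

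**Figure D1:**
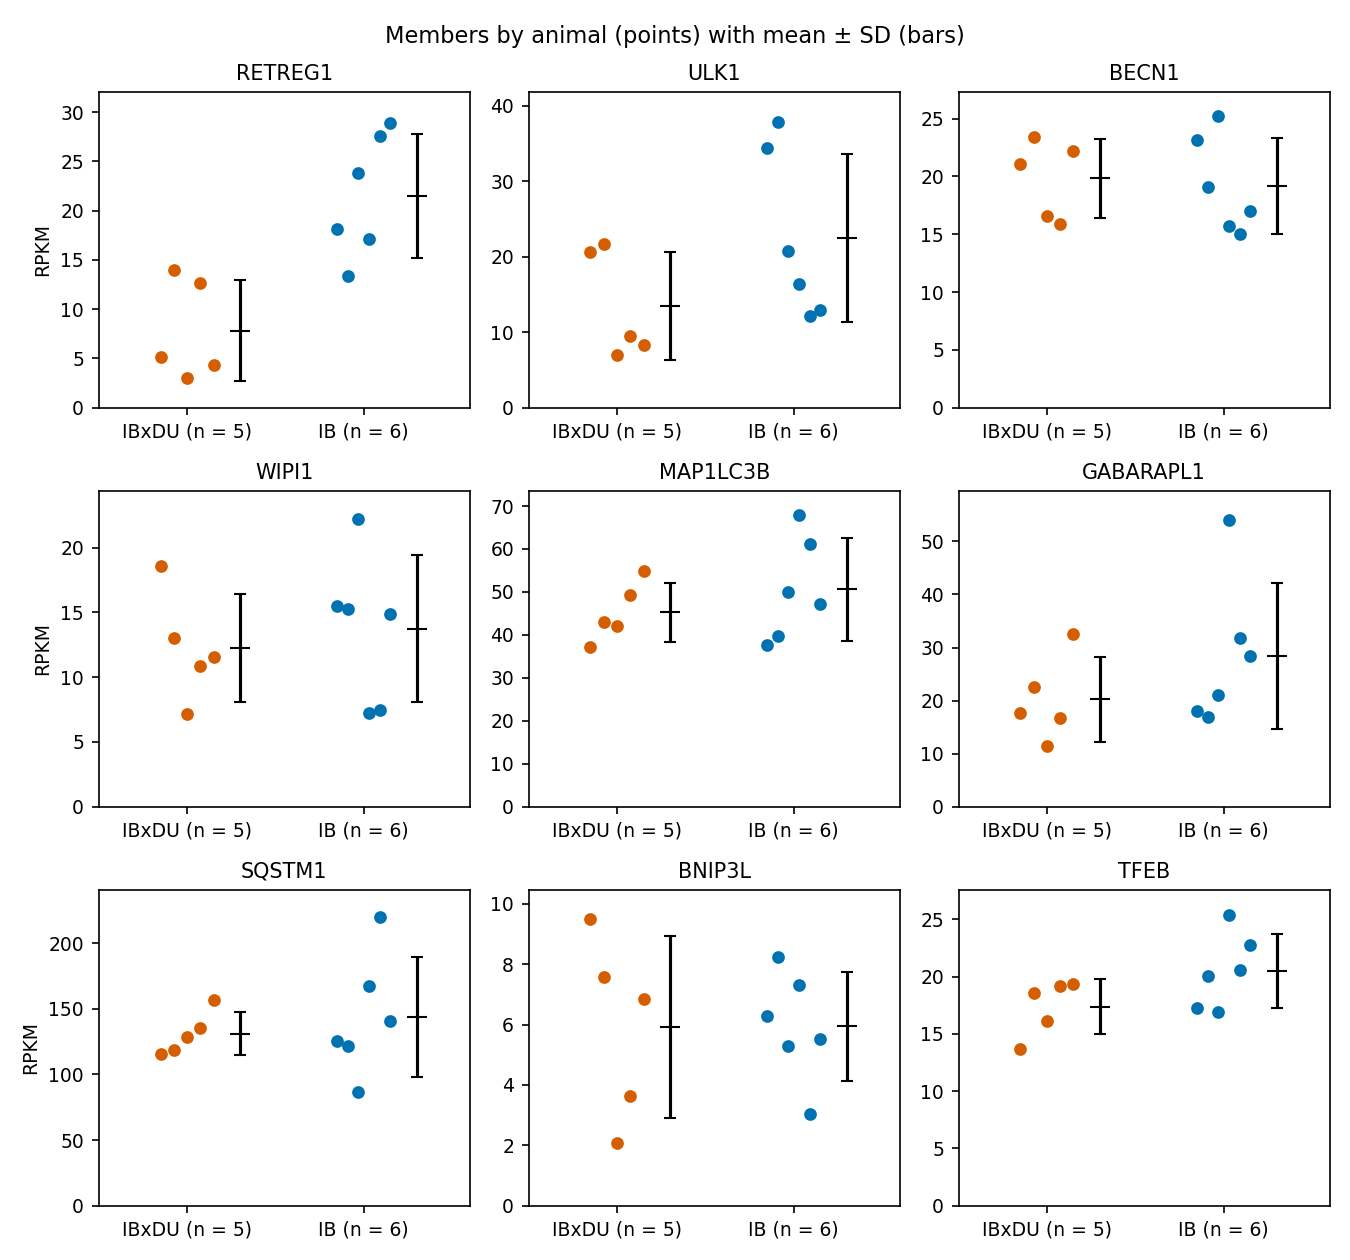
RPKM of the 9 members in each animal (points, vertical axis from 0), with IBxDU (n = 5) left of IB (n = 6) and the mean ± SD of each type beside the points. RETREG1 averaged 7.82 RPKM in IBxDU and 21.5 RPKM in IB, and in each of the other panels the 2 types also overlap.

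RETREG1 was next set beside the other receptors for ER-phagy, since these genes share its task. Of 9 receptor symbols 8 had a row, RETREG1 included. Its share of the summed RPKM of the 8 was 5.42, 12.2, 4.62, 13.6 and 4.55% in the IBxDU piglets, against 17.4, 13.1, 21.0, 14.4, 28.5 and 24.2% in the IB piglets. The share averaged 8.08 ± 4.45% in IBxDU (SD, n = 5) and 19.8 ± 5.94% in IB (SD, n = 6), with an overlap of IBxDU-427 and IB-330. By level within the animal, RETREG1 ranked 3 to 7 of 8 in IBxDU and 1 to 3 of 8 in IB.

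The other receptors of the ER were on average closer between the types. RETREG2, a relative of RETREG1 with the same membrane-bending domain, averaged 12.5 ± 2.30 RPKM in IBxDU and 12.1 ± 1.24 RPKM in IB, and RETREG3, the remaining relative, averaged 10.6 ± 1.77 RPKM in IBxDU and 8.94 ± 1.17 RPKM in IB (SD, n = 5 and 6). SEC62, a subunit of the protein translocation machinery that also serves as a receptor during recovery from ER stress, averaged 21.5 ± 4.11 RPKM in IBxDU and 19.96 ± 3.47 RPKM in IB. CALCOCO1, a soluble receptor that binds the ER through VAP proteins, was the receptor whose mean was lower in IBxDU beside RETREG1. CALCOCO1 had 23.3, 32.6, 15.6, 25.3 and 19.5 RPKM in the IBxDU piglets, against 34.9, 28.8, 36.0, 38.2, 21.3 and 33.7 RPKM in the IB piglets. Its log2 fold change was -0.48 (SE 0.21), with a limma adjusted p of 0.589 and an exact two-sided permutation p of 0.0541, and the groups overlapped. The 7 receptors other than RETREG1 had log2 fold changes of -0.48 to 0.30, 6 of them above 0, with a median of 0.10 beside 0.13 over all genes tested. The sum over all 8 was 92.5 ± 17.2 RPKM in IBxDU and 109 ± 9.62 RPKM in IB (SD, n = 5 and 6).

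**Figure D2:**
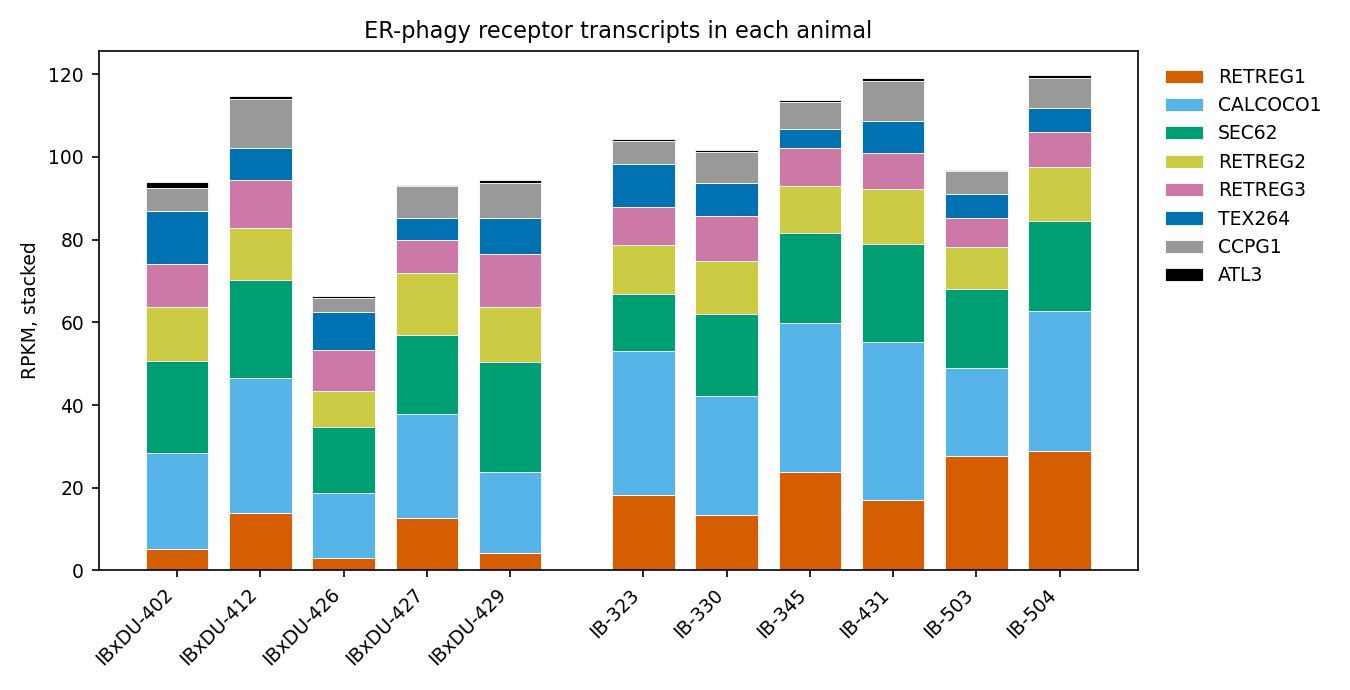
Stacked RPKM of the 8 ER-phagy receptors in each animal, the 5 IBxDU piglets left of the 6 IB piglets. RETREG1, at the foot of each bar, takes 4.55 to 13.6% of the bar in IBxDU and 13.1 to 28.5% in IB.

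The genes that start the process followed. ULK1 (ENSSSCG00000009742), the kinase that receives signals of nutrient state, had 20.7, 21.7, 6.93, 9.54 and 8.33 RPKM in the IBxDU piglets, against 34.5, 37.9, 20.8, 16.4, 12.2 and 13.0 RPKM in the IB piglets. The 3 lowest of all 11 animals, below 10 RPKM, were IBxDU and the 2 highest were IB, with the remaining 6 animals interleaved. The means were 13.4 ± 7.16 RPKM in IBxDU and 22.4 ± 11.1 RPKM in IB (SD, n = 5 and 6), a log2 fold change of -0.76 (SE 0.38, 95% interval -1.56 to 0.05). BECN1 (ENSSSCG00000017386), the scaffold of the lipid kinase complex, averaged 19.8 ± 3.41 RPKM in IBxDU and 19.2 ± 4.16 RPKM in IB. Its log2 fold change was 0.06 (95% interval -0.34 to 0.45), below 0 after either scaling. WIPI1 (ENSSSCG00000017260), which binds the lipid that this complex makes, averaged 12.3 ± 4.15 RPKM in IBxDU and 13.8 ± 5.68 RPKM in IB, a log2 fold change of -0.12 (95% interval -0.79 to 0.55).

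The ATG8 genes encode the proteins that RETREG1 and the other receptors bind. MAP1LC3B (ENSSSCG00000002655), the LC3 form most used to count autophagosomes, had 37.2, 43.0, 42.1, 49.3 and 54.9 RPKM in the IBxDU piglets, against 37.6, 39.8, 50.0, 67.8, 61.3 and 47.1 RPKM in the IB piglets. The types overlapped over most of their range, and the log2 fold change was -0.14 (SE 0.18). GABARAPL1 (ENSSSCG00000000645), of the GABARAP branch, had 17.6, 22.6, 11.4, 16.8 and 32.6 RPKM in IBxDU, against 18.1, 16.98, 21.0, 54.0, 31.9 and 28.4 RPKM in IB. IB-431 stood highest, and the log2 fold change of -0.45 (SE 0.31) was -0.24 without this animal. The ATG8 genes that were no members were MAP1LC3A, at 135 ± 48.0 RPKM in IBxDU and 142 ± 54.3 RPKM in IB, GABARAPL2, at 47.5 ± 9.26 RPKM in IBxDU and 52.3 ± 6.62 RPKM in IB, and GABARAP, at 26.2 ± 15.5 RPKM in IBxDU and 24.5 ± 14.3 RPKM in IB (SD, n = 5 and 6).

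SQSTM1 (ENSSSCG00000014016), the receptor p62 that carries ubiquitinated proteins into autophagosomes and is itself degraded there, was the most abundant member. It had 115, 119, 129, 136 and 157 RPKM in the IBxDU piglets, against 126, 122, 86.5, 168, 220 and 141 RPKM in the IB piglets. All IBxDU values lay inside the IB range, and the SD was 16.5 RPKM in IBxDU and 45.9 RPKM in IB. The log2 fold change was -0.08 (95% interval -0.53 to 0.36). BNIP3L (ENSSSCG00000009658), a receptor on the outer mitochondrial membrane that serves the removal of mitochondria, was the least abundant at 5.93 ± 3.01 RPKM in IBxDU and 5.95 ± 1.80 RPKM in IB (SD, n = 5 and 6). It ranged over 2.09 to 9.50 RPKM in IBxDU and 3.05 to 8.24 RPKM in IB, so the range of IBxDU enclosed that of IB. Its lowest value, in IBxDU-426, rests on 240 reads, a counting error of 6.45%. TFEB (ENSSSCG00000001621), the transcription factor that switches on lysosome and autophagy genes, had 13.7, 18.6, 16.1, 19.2 and 19.3 RPKM in IBxDU, against 17.2, 20.03, 16.9, 25.4, 20.5 and 22.7 RPKM in IB. All 5 IBxDU values were below the IB mean of 20.5 RPKM, the groups overlapped, and the log2 fold change was -0.23 (95% interval -0.58 to 0.12).

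Counted together, 0 of the 9 members passed the adjusted threshold in the limma fit, beside 0.0168% of all genes tested. RETREG1 was chosen by this contrast and is left out of the count before adjustment. At an unadjusted p under 0.05, 0 of the 8 other members were lower and 0 higher in IBxDU, where 8.03% of all genes tested had such a p, 2.02% lower and 6.00% higher. A limma fit with voom weights on recovered reads gave the same counts, 0 of 9 after adjustment and 0 of 8 before it. For no member were the animals of one type all above those of the other, beside 0.227% of all genes with every IBxDU below every IB animal. The log2 fold changes were below 0 for 8 of 9 members (9 of 9 after either scaling) with a median of -0.14, beside a median of 0.13 over all genes tested. Of all genes, 66.9% were above 0, against 51.4% after upper quartile and 51.5% after median-of-ratios scaling. The counts of 9 and the median of the members include RETREG1, which was chosen by this contrast. With either scaling 2 of the 8 other members, ULK1 and TFEB, were lower at an unadjusted p under 0.05, beside 4.37% of all genes tested with upper quartile and 4.48% with median-of-ratios scaling. The 95% intervals of their log2 fold changes were then -1.72 to -0.04 for ULK1 and -0.68 to -0.03 for TFEB with upper quartile scaling, and -1.66 to -0.09 and -0.70 to -0.01 with median-of-ratios scaling. Nothing is read from these counts about the members as a set. In bulk muscle, fewer cells of a type and less RNA per cell cannot be told apart for any of these genes.

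Per length, the order of levels over the 11 animals was SQSTM1 (138 RPKM), MAP1LC3B (48.2), GABARAPL1 (24.7), BECN1 (19.5), TFEB (19.1), ULK1 (18.4), RETREG1 (15.3), WIPI1 (13.1) and BNIP3L (5.94 RPKM). SQSTM1 exceeded MAP1LC3B, and MAP1LC3B exceeded GABARAPL1, in 11 of 11 animals, and WIPI1 exceeded BNIP3L in 10 of 11. From GABARAPL1 down to WIPI1, each gene exceeded its next neighbour in 5 to 7 of 11 animals, with a mean log2 difference smaller than its SD, so these neighbours did not differ beyond their spread. The place of RETREG1 differed with the type, as its mean ranked 8 of 9 in IBxDU and 5 of 9 in IB. On a log scale RETREG1 had the widest range of the 9 genes, 3.06 to 28.9 RPKM.

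The rest of the autophagy machinery was described through 12 lists by role, 131 symbols beside the members, of which 105 were matched and all 105 were tested. Of these, 0 passed the adjusted threshold by limma or by limma with voom weights. At an unadjusted p under 0.05, 2 were higher and 2 lower in IBxDU, beside 6.00% higher and 2.02% lower over all genes tested. The median log2 fold change was 0.07, with 64 of 105 genes above 0. After upper quartile scaling, 0 were higher and 8 lower at that level, beside 3.02% higher and 4.37% lower over all genes. After median-of-ratios scaling, 2 were higher and 9 lower, beside 2.97% and 4.48% over all genes. With either scaling 43 of 105 were above 0, where 51.4% and 51.5% of all genes were.

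PIK3R4, the regulatory subunit that anchors the BECN1 lipid kinase, had 2.75, 2.98, 2.88, 2.85 and 4.61 RPKM in the IBxDU piglets, against 2.21, 2.29, 2.68, 2.71, 1.496 and 1.73 RPKM in the IB piglets. Every IBxDU piglet was above every IB piglet, the only list gene with such a split, beside 0.808% of all genes tested. Its log2 fold change was 0.54 (SE 0.22), with a limma adjusted p of 0.572 and an exact two-sided permutation p of 0.00866 over 462 relabelings. TECPR1, which joins autophagosomes to lysosomes, averaged 1.11 ± 0.494 RPKM in IBxDU and 0.647 ± 0.0654 RPKM in IB (SD, n = 5 and 6). All 5 IBxDU values were above the IB mean, and the log2 fold change of 0.62 (SE 0.27) had a limma adjusted p of 0.607 and an exact permutation p of 0.00649. The exact permutation p of list genes are not adjusted for the number of genes tested, here and throughout. The genes shown with one were named for the smallest limma p of their list, so low values among them carry no support.

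FOXO3, a transcription factor that drives autophagy genes in wasting muscle of mice, had 4.67, 6.76, 3.83, 2.59 and 5.67 RPKM in the IBxDU piglets, against 4.94, 5.19, 8.55, 19.3, 9.50 and 14.8 RPKM in the IB piglets. The 4 highest animals were IB, and IB-323 and IB-330 lay among the IBxDU values. Its log2 fold change was -1.02 (SE 0.36), with a limma adjusted p of 0.539 and an exact permutation p of 0.0390. The study had named FOXO3 from these same animals, so this is not independent of that choice. TFE3, a close relative of TFEB, averaged 13.8 RPKM in IBxDU and 12.5 RPKM in IB, a log2 fold change of 0.15 (limma adjusted p of 0.8003).

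By list, the medians of the log2 fold changes lay between -0.18 and 0.24. The 23 lysosome genes had a median of 0.12, with 15 above 0. ATP6V1B2, a subunit of the proton pump that acidifies lysosomes, averaged 9.70 RPKM in IBxDU and 6.59 RPKM in IB, and MCOLN1, the lysosomal calcium channel, averaged 3.94 RPKM in IBxDU and 5.21 RPKM in IB, with limma adjusted p of 0.613 and 0.620. The 12 genes of fusion with lysosomes had a median of 0.05. The 19 genes of mTORC1 and AMPK control, the nutrient sensors upstream of ULK1, had a median of 0.12. RRAGA, a GTPase that recruits mTORC1 to lysosomes, averaged 59.8 ± 10.199 RPKM in IBxDU and 46.5 ± 7.67 RPKM in IB (SD, n = 5 and 6), with 4 of 5 IBxDU piglets above every IB piglet, a limma adjusted p of 0.612 and an exact permutation p of 0.0455. SESN1, a sestrin that restrains mTORC1, averaged 23.97 ± 12.7 RPKM in IBxDU and 34.9 ± 11.3 RPKM in IB (SD, n = 5 and 6), with a limma adjusted p of 0.616. SESN2, another sestrin and a gene singled out after its values were seen, had 15.4 and 19.5 RPKM in IBxDU-402 and IBxDU-426 and at most 6.05 RPKM in the other 9 animals.

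Of the 5 mitophagy genes beside BNIP3L, 4 had log2 fold changes below 0. PINK1, the kinase that marks damaged mitochondria, averaged 78.4 ± 26.3 RPKM in IBxDU and 89.4 ± 31.3 RPKM in IB (SD, n = 5 and 6). The limma adjusted p of PINK1 was 0.859 and its exact permutation p was 0.576. VMP1, an ER protein needed for the membrane to expand, averaged 9.98 ± 2.58 RPKM in IBxDU and 7.67 ± 1.12 RPKM in IB (SD, n = 5 and 6), with a limma adjusted p of 0.618 and an exact permutation p of 0.0433. The remaining genes named by rule, the 2 smallest p of each list, were ATG10, ATG4D, RUBCN, OPTN, NBR1, VPS11, WIPI2, ATG13 and ULK2, whose log2 fold changes lay between -0.44 and 0.40 with limma adjusted p of 0.657 to 0.932.

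**Figure D3:**
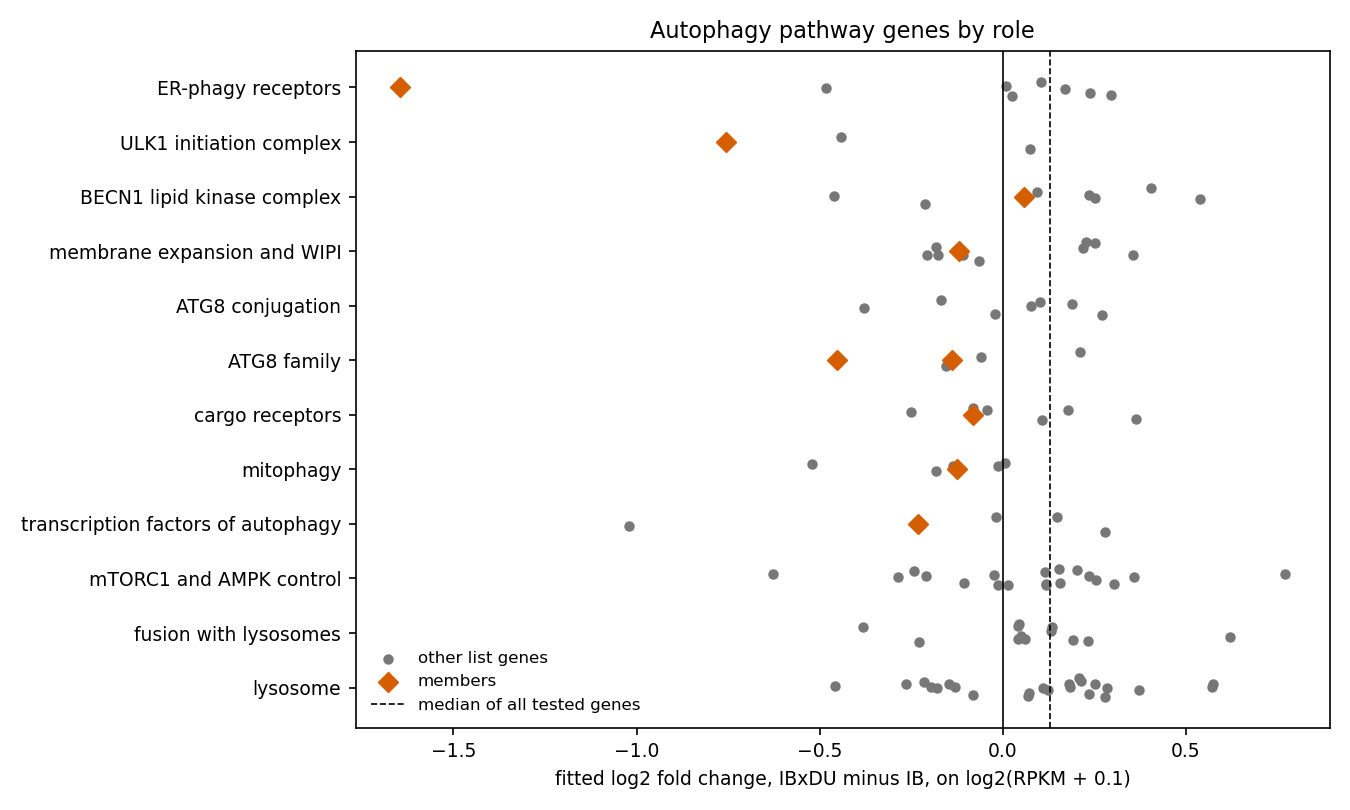
Fitted log2 fold change, IBxDU minus IB on log2(RPKM + 0.1), of 105 autophagy genes (grey points) and the 9 members (orange diamonds), 1 row per list. RETREG1 at -1.65 lies furthest left, and the dashed line marks the median of all 11875 tested genes at 0.13.

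The genes whose level followed RETREG1 most closely over the 11 animals were sought among 8113 tested genes with a symbol, by the Pearson r of log2(RPKM + 0.1). The r describes these 11 points, which share the contrast of the types, and carries no test. SDR39U1, which encodes a short-chain dehydrogenase, had r of 0.94 with RETREG1 over all animals and 0.85 after the mean of each type was removed. MLIP, a protein of muscle that interacts with lamins, had 0.92 and 0.84 in the same order. PROCA1 had 0.89 and 0.76, and it was measured near the low end at 0.468 RPKM in IBxDU and 0.871 RPKM in IB. FHL3, which encodes a protein with LIM domains and which the study listed as different between these animals, had 0.89 and 0.68. MEF2D, a transcription factor of muscle genes, had 0.89 and 0.71. In opposite order to RETREG1 ran JPT2 (r of -0.96, and -0.90 with type means removed), PLEKHH1 (-0.95 and -0.90) and PUS7L (-0.95 and -0.87). The likeness was closer within IBxDU than within IB for each of the 8 genes, and no test of that gap was made. FHL3 had r of 0.91 over the 5 IBxDU and 0.31 over the 6 IB piglets, MEF2D 0.94 and 0.44, PLEKHH1 -0.99 and -0.52, and MLIP 0.95 and 0.59. SDR39U1 was the most even, with 0.88 in IBxDU and 0.80 in IB. In all, 34 genes had r over 0.8 and 107 had r under -0.8.

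The values by animal of MLIP and JPT2 show the pattern that this likeness picks. MLIP had 16.7, 29.7, 15.4, 33.9 and 14.5 RPKM in the IBxDU piglets, against 32.5, 23.2, 43.4, 47.5, 35.8 and 42.8 RPKM in the IB piglets. JPT2, also called HN1L, had 15.6, 8.35, 16.4, 10.19 and 13.9 RPKM in IBxDU, against 8.73, 8.24, 8.30, 8.11, 7.35 and 7.09 RPKM in IB. In both genes IBxDU-402, IBxDU-426 and IBxDU-429 stood apart from the IB animals while IBxDU-412 and IBxDU-427 lay closer to them, as in RETREG1. Not every gene did so, as all 5 IBxDU piglets lay outside the IB range in FHL3, MEF2D and PLEKHH1. FHL3 was at most 248.6 RPKM in IBxDU and at least 312.9 RPKM in IB, and PLEKHH1 at least 1.77 RPKM in IBxDU and at most 1.32 RPKM in IB. In PROCA1, IBxDU-427 was at 0.457 RPKM, beside 0.237 to 0.437 RPKM in the low trio.

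**Figure D4:**
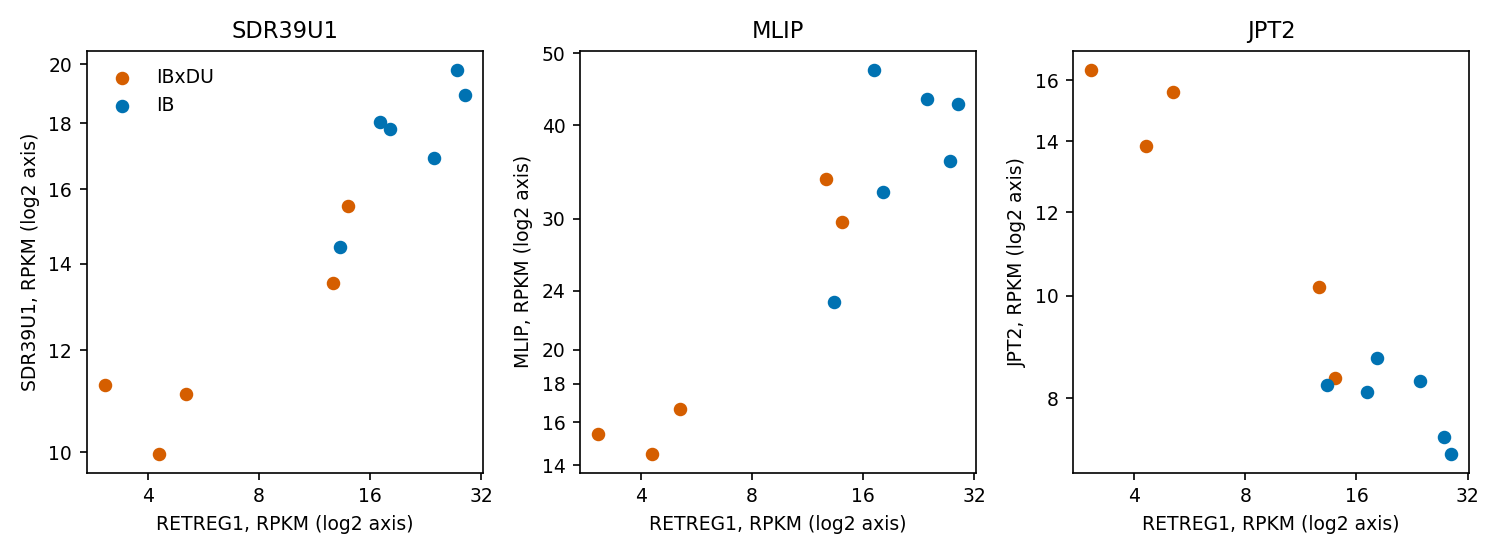
RPKM of SDR39U1, MLIP and JPT2 (vertical, log2 axis) against RPKM of RETREG1 (horizontal, log2 axis), 1 point per animal, IBxDU in orange and IB in blue. The r over the 11 animals was 0.94, 0.92 and -0.96, and 3 IBxDU animals with RETREG1 between 3.06 and 5.10 RPKM stand apart from the rest in each panel.

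Among the autophagy genes, GABARAPL2 had r of 0.74 with RETREG1 and 0.82 with type means removed, and CALCOCO1 had 0.74 and 0.54. At the other end stood TECPR1 (-0.79 and -0.56), NPC1, a lysosomal cholesterol transporter (-0.77 and -0.60), and VMP1 (-0.72 and -0.51). These values are descriptions over the same 11 animals.

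With type means removed, the r of RETREG1 with the 8 other members lay between -0.00 and 0.27. For each of them but MAP1LC3B and GABARAPL1 this joins opposite signs within the types. The gap was widest for ULK1, with r of 0.51 over the 5 IBxDU and -0.81 over the 6 IB piglets. In the same order, r was 0.28 and -0.80 with BNIP3L, and 0.47 and -0.003 with TFEB. These within-type values rest on few animals and carry no test. Among the 36 pairs of members, an arrangement seen after the values placed SQSTM1, MAP1LC3B, GABARAPL1 and TFEB together, with r of 0.56 to 0.80 within the 6 pairs, and ULK1, BNIP3L, BECN1 and WIPI1 together, with r of 0.55 to 0.78. Between the sets r lay between -0.80 and 0.30, and 1 of 16 pairs was above 0. GABARAPL1 did not keep this order within IBxDU, where its r was 0.75 with BECN1, 0.70 with BNIP3L, 0.44 with WIPI1 and 0.21 with ULK1, against -0.72, -0.17, -0.79 and -0.73 within IB. The tests of pairs used r and rho over all animals with type means kept, so they do not test the r with type means removed. The pair MAP1LC3B and GABARAPL1 had a Pearson r of 0.81 (permutation p 0.00231, adjusted over 36 pairs 0.0610) and a Spearman rho of 0.70 (permutation p 0.0207, adjusted 0.134), and r was 0.57 without the 2 animals farthest from the median of MAP1LC3B. The pair SQSTM1 and WIPI1 had a Pearson r of -0.77 (permutation p 0.00339, adjusted 0.0610) and a Spearman rho of -0.75 (permutation p 0.0113, adjusted 0.101), and r was -0.60 without the 2 animals farthest from the median of SQSTM1. Of the 36 pairs 0 passed an adjusted p of 0.05. Depth moved with some of these genes, with r against log2 mapped reads of -0.70 for BNIP3L, -0.66 for WIPI1 and 0.01 for RETREG1, and its part in the pattern was not tested.

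**Figure D5:**
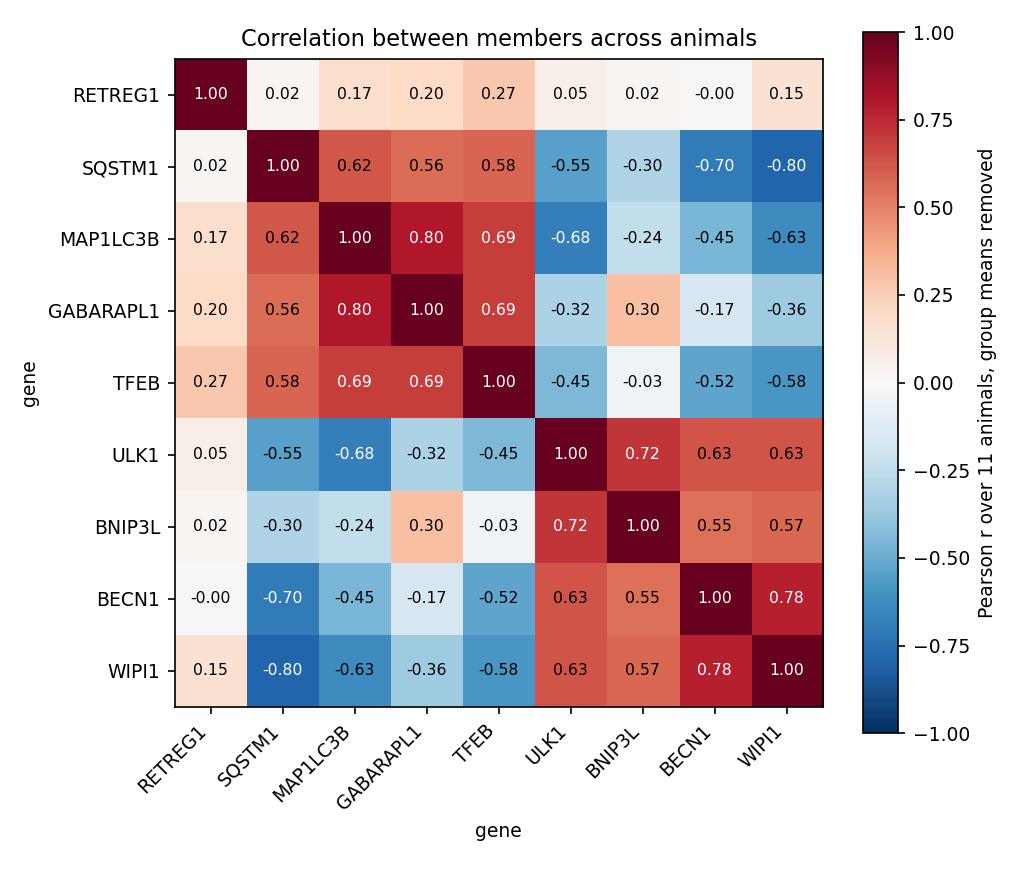
Pearson r between each pair of members over 11 animals after the mean of each genetic type was removed (colour scale from -1 in blue to 1 in red). Within SQSTM1, MAP1LC3B, GABARAPL1 and TFEB r was 0.56 to 0.80, within ULK1, BNIP3L, BECN1 and WIPI1 0.55 to 0.78, and RETREG1 had -0.00 to 0.27 with the others, which for ULK1 joins r of 0.51 within IBxDU and -0.81 within IB.

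Markers of other cells that a muscle sample holds were set beside RETREG1. Among nerve markers, the neuronal filament genes NEFL and PRPH averaged under 0.1 RPKM in both types. The 4 of 5 macrophage markers matched summed to 5.62 to 69.8 RPKM in IBxDU and 9.33 to 16.97 RPKM in IB, and the 2 of 5 adipocyte markers to 2.72 to 89.9 RPKM in IBxDU and 0.342 to 47.7 RPKM in IB. For connective tissue, 4 of 5 markers were matched and summed to 613 to 5518 RPKM in IBxDU and 940.3 to 2550.2 RPKM in IB, with PDGFRA at 0 in all animals. The highest of each of these sums was in IBxDU-402, and without it the IBxDU maxima were 13.01 RPKM for macrophage, 27.8 RPKM for adipocyte and 2095 RPKM for connective tissue markers. RETREG1 had a log2 fold change of -1.56 when this animal was left out. The part of these cells in the RETREG1 values was not tested.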

How the data were processed

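The mRNA of Biceps femoris from 12 piglets was sequenced in paired reads, and 11 of them had values here. Reads were mapped to the annotated Sscrofa10.2 genome with CLC Bio Genomic Workbench, and the authors deposited the resulting RPKM of each gene in each animal. The table also holds a p-value and a fold change of their own comparison, not used here. Symbols came from a table of gene IDs, which named 11450 rows. Each of the 16321 genes above 0 in at least 2 animals gave whole reads (tolerance 0.001 reads), and depth was taken from these.

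Genes with a mean above 0.5 RPKM in at least 1 type were kept, and on log2(RPKM + 0.1) IBxDU was compared with IB by limma 3.58.1 (R 4.3.3, empirical Bayes with trend, Benjamini-Hochberg adjustment over 11875 genes). A fold change on this scale understates the change of low genes. On simulated data with 100 genes per size, 41.2% of genes with a log2 fold change of 1 and 87.4% of those with 2 were recovered. The mean number of false calls was 6.6. These shares hold for that number of changed genes, while 2 genes were called in the real data, so they may overstate the recovery here. Pathway genes that are no members also had exact permutation tests over all 462 relabelings, without adjustment, and correlations between members had 100000 permutations. The text names all members, from each list the 2 other genes with the smallest p, the 5 genes most like RETREG1 and the 3 most opposite, and markers, except items that are not reported here. Members and lists were chosen with earlier results of these data known. Alternatives were 2 pseudocounts, 2 filters, 2 scalings, robust variance, leaving out each animal and, chosen after seeing the data, voom weights on recovered reads.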

Additional observations from a re-analysis of the deposited data

Results flagged for a closer look

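In 41 genes, the highest and lowest value of each type was compared with its nearest neighbour, 82 groups in all. Of these values 3 stood apart, in IBxDU-402 and IBxDU-429, where chance gives about 1 in 20 groups, or 4.1. GABARAP was 52.8 RPKM in IBxDU-402, against 24.2 RPKM in the next IBxDU animal. PIK3R4 was 4.61 RPKM in IBxDU-429, against 2.98 RPKM in the next IBxDU animal, and VMP1 was 14.5 RPKM in IBxDU-429, against 9.34 RPKM in the next. RETREG1 and the other members had no such value.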

How the results depend on the processing

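The number of genes called over all genes, 2, became 1 with upper quartile scaling, with median-of-ratios scaling and with voom weights, and 1 to 2 when 1 animal was left out, staying at 2 only without IBxDU-412. The counts of members and of other pathway genes called were 0 under every alternative run. RETREG1 had log2 fold changes of -1.92 (without IBxDU-412) to -1.38 (without IBxDU-426) over the animals left out, and of -1.77 to -1.50 over the other alternatives. Other pathway genes at an unadjusted p under 0.05, 2 in each direction, numbered 0 to 5 higher and 1 to 5 lower in IBxDU when 1 animal was left out, with 5 of each without IBxDU-412 and 0 higher without IBxDU-429, IB-503 or IB-504. ULK1 ranged over -0.97 to -0.56, and GABARAPL1 over -0.65 to -0.24, when 1 animal was left out. Without IBxDU-402, IBxDU-412, IB-503 or IB-504, ULK1 alone of the 8 members other than RETREG1 was lower at an unadjusted limma p under 0.05. Over all genes tested, 1.64 to 3.47% were lower at that level in these fits. With any other animal left out, 0 of the 8 were. Of 171 values of members, 9 changed sign, all in BECN1, WIPI1, BNIP3L and SQSTM1, and 0 moved by more than 1 SD. Among the 24 pathway genes named by rule, 3 changed sign. ULK2 was -0.047 with upper quartile and -0.045 with median-of-ratios scaling, and -0.033 to 0.24 when 1 animal was left out, below 0 without IBxDU-429 or IB-323. GABARAP was -0.11 to 0.43, below 0 without IBxDU-402 or IB-323, and PINK1 was -0.34 to 0.012, above 0 without IBxDU-402. Without IBxDU-429 the log2 fold changes of PIK3R4 and TECPR1 were 0.41 and 0.41. TECPR1 did not enter with a filter of 2 RPKM. The cause of these changes was not tested. No paired analysis was possible because the 2 types share no animal numbers.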
